A study of Rattus norvegicus with 10 samples.

Results

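Immediate early transcription factors are DNA-binding proteins whose genes are switched on within minutes of a stimulus, without new protein synthesis. A list of 6 such genes was looked up by Ensembl rat identifier in a count table of 15584 genes, and 5 were present: Fos (ENSRNOG00000008015), Jun (ENSRNOG00000026293), Egr1 (ENSRNOG00000019422), Myc (ENSRNOG00000004500) and Atf3 (ENSRNOG00000003745). The identifier listed for Junb, ENSRNOG00000042838, was not among the rows, so Junb was not analysed here. The pairing of identifiers with gene symbols came from the list itself. The deposited table holds identifiers alone, and none of them could be looked up in the RefSeq gene table used here (0 of 15584 matched).

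The RNA came from neonatal rat cardiomyocytes, heart muscle cells isolated from newborn rats and kept in culture. There were 5 libraries from cells given N-palmitoylglycine at 1 µM for 24 h and 5 from cells given the solvent DMSO for 24 h. N-palmitoylglycine is the amide of palmitic acid with glycine, and the series title links it to the cation channel TRPC5 and to Brugada syndrome, an inherited disorder of heart rhythm. The comparison asks whether transcript levels differed after exposure to the lipid. The labels give no strain or sex and do not state whether the numbered libraries were separate cell isolations, so p-values measure only how far these libraries differ, a spread that may be technical. Only 1 time point was sampled, so a response that came and went before 24 h was not measured.

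In heart muscle cells these genes are classic early responders to stretch, adrenergic agonists, growth factors and calcium entry, and their transcripts are short-lived. Signals through MAP kinases act on serum response factor and its partners at CArG boxes (serum response elements), and signals through calcium and cyclic AMP act on CREB at cyclic AMP response elements. Fos and Jun proteins pair to form AP-1, Atf3 belongs to the same leucine zipper class and often acts as a stress-induced repressor, Egr1 is a zinc finger factor, and Myc pairs with Max and drives growth and biosynthesis genes.

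The RefSeq promoter table held an entry for 1 of the 5 genes, Egr1, and had none for Fos, Jun, Myc and Atf3. The 250 bases before the annotated start of Egr1 are shown because they carry several of the elements named above, and because Egr1 varied most between the libraries. The sequence is from RefSeq on build GRCr8, at chr18:26736828-26737077 on the plus strand, whereas the reads were processed on mRatBN7.2. It lies upstream of the first exon. Capitals mark the matches found.
Egr1: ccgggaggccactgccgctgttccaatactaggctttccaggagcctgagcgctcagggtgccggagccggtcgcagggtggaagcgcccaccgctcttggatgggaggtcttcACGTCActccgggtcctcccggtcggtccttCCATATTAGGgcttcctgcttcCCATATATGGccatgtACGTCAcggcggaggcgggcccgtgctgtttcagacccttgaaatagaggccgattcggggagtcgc

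Both strands were searched for the CArG box, for TGACGT (the core of the cyclic AMP response element), for TGANTCA (the AP-1 site) and for GCGTGGGCG (a site of the Egr family). Positions count back from the annotated start, with −1 the base before it. The Egr1 stretch held 2 CArG boxes, CCATATTAGG at −105 to −96 and CCATATATGG at −83 to −74. It also held TGACGT on the minus strand at −136 to −131 and at −67 to −62, printed above as ACGTCA. No 2 matches overlapped. Of 33469 promoters of the same length in the table, 1.50% held a CArG box and 7 held 2 or more, while 6.95% held TGACGT. The letters TGANTCA and GCGTGGGCG, present in 6.34% and 0.478% of the promoters, were not in this window. A match is a description of the letters and was not tested for binding.

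Library totals ranged from 56580073 to 78946785 reads assigned to genes. In an earlier analysis of these data, and again in the values below, libraries 1 to 3 of both groups stood apart from libraries 4 and 5 of both groups. The labels name no batch that follows these numbers. The library sets were thus defined from the data, so differences in level between them are described without a test. The fits below that use the sets, as a term, each alone or in an interaction with treatment, carry p-values that rest on this division. The treatment effect on each gene is given with all libraries and within each set. Markers of cardiomyocytes, fibroblasts and other heart cells could not be looked up without symbols, so the labelled cell type and its purity were not checked. In bulk RNA, a change in the cells present cannot be told apart from a change in transcripts per cell.

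No difference between palmitoylglycine and DMSO was shown for any of the 5 genes. With treatment as the only term, the difference between library sets counts as spread, most of all for Egr1. In edgeR's quasi-likelihood test over all 10 libraries, 0 of the 5 passed a Benjamini-Hochberg adjusted p of 0.05, where 0.0% of the 15321 genes tested passed. At an unadjusted p under 0.05 there were also 0 of 5, against 10.3% of all genes tested. With the replicate number as a block it was 0 of 5 against 15.6%, and with a term for the library sets 0 of 5 against 19.1%. DESeq2 called 0 of the 5, beside 0.863% of all genes after adjustment and 11.6% before. Limma-voom with quality weights also called 0 of the 5, beside 20.5% of all genes at an unadjusted p. The CPM values of the groups overlapped for each of the 5 genes, and they were apart for 2.05% of all genes tested. The median log2 fold change of the 5 genes was 0.020, beside −0.0012 over all genes tested. The larger pattern in these genes lay between the library sets: Egr1 and Fos were lower in libraries 4 and 5 of both groups, Myc and Jun slightly so, and Atf3 was not.

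**Figure D1:**
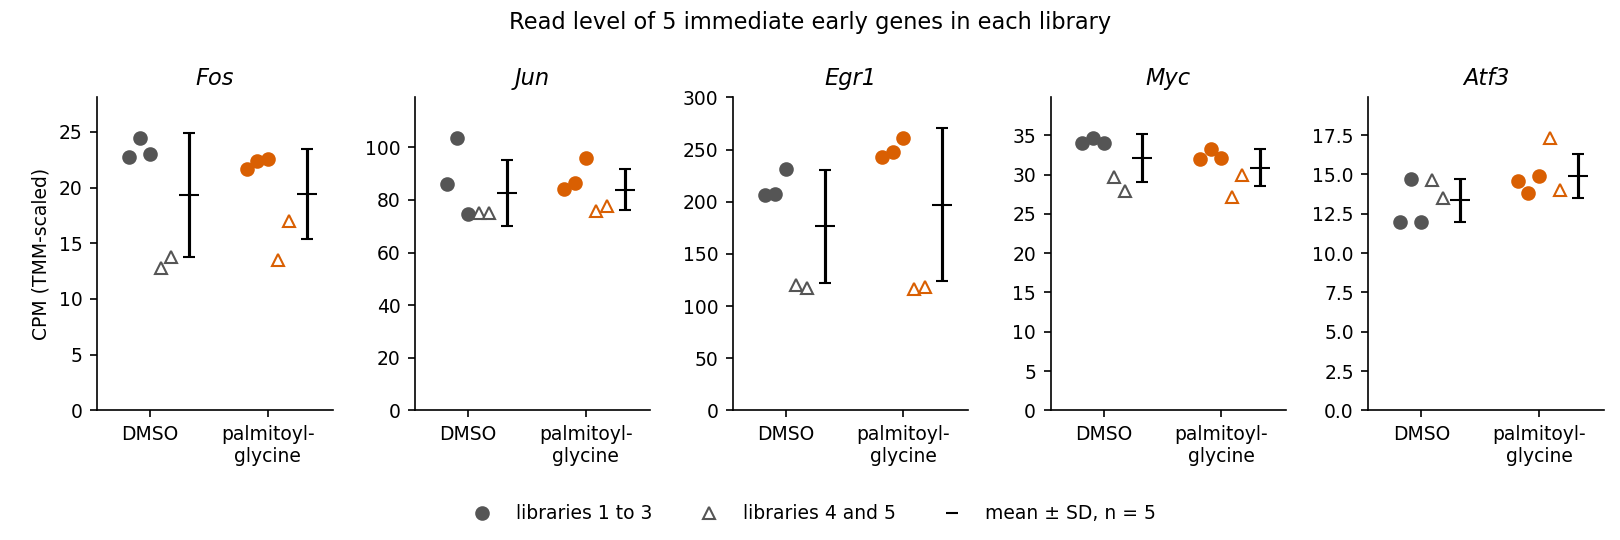
Each panel plots 1 gene, with CPM (reads per 1000000, scaled by edgeR's TMM factors) on the vertical axis and the 2 treatment groups on the horizontal axis. Filled circles are libraries 1 to 3, open triangles are libraries 4 and 5, and bars give the mean ± SD of 5 libraries. For Egr1 the triangles lie between 116.0 and 119.7 CPM and the circles between 206.4 and 261.0 CPM, and for Atf3 the symbols mix.

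Fos encodes the AP-1 subunit that is made mainly after stimulation and that needs a Jun partner to bind DNA. With DMSO its level was 22.7, 24.4, 23.0, 12.8 and 13.7 CPM in libraries 1 to 5, where CPM is the gene's reads per 1000000 reads of the TMM-scaled library total. With palmitoylglycine it was 21.7, 22.3, 22.6, 13.5 and 17.0 CPM. The groups overlapped, and libraries 4 and 5 were the lowest in each. The means were 19.3 ± 5.58 CPM (SD, n = 5) with DMSO and 19.4 ± 4.02 CPM (SD, n = 5) with palmitoylglycine. The log2 fold change was 0.0067 ± 0.21 (SE, edgeR adjusted p = 0.996), and the unadjusted 95% interval ran from 0.723-fold to 1.40-fold. With a term for the library sets the interval narrowed to 0.903-fold to 1.16-fold.

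Jun encodes the AP-1 subunit that can pair with itself or with Fos. Its levels with DMSO were 85.9, 103.5, 74.5, 74.9 and 75.1 CPM in libraries 1 to 5, and with palmitoylglycine 84.0, 86.2, 95.9, 75.8 and 77.7 CPM. DMSO library 2 was the highest of the 10 and DMSO library 3 the lowest, so the DMSO group enclosed the other. The means were 82.8 ± 12.5 CPM (SD, n = 5) with DMSO and 83.9 ± 7.95 CPM (SD, n = 5) with palmitoylglycine. The log2 fold change was 0.020 ± 0.11 (SE, edgeR adjusted p = 0.969). Its 95% interval, 0.862-fold to 1.19-fold, left room for only small differences in either direction.

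Atf3, a stress-responsive factor of the ATF and CREB family, had the smallest p of the 5 genes over all 10 libraries with treatment as the only term. Egr1 had the smallest with the library set term, with the replicate block and in libraries 1 to 3 alone. With DMSO Atf3 was at 11.97, 14.7, 11.98, 14.6 and 13.5 CPM in libraries 1 to 5, and with palmitoylglycine at 14.6, 13.8, 14.9, 17.3 and 14.0 CPM. The groups overlapped: DMSO libraries 2 and 4 each lay above 3 of the palmitoylglycine libraries. The means were 13.4 ± 1.35 CPM (SD, n = 5) and 14.9 ± 1.40 CPM (SD, n = 5). The log2 fold change was 0.16 ± 0.09 (SE, edgeR unadjusted p = 0.12, adjusted p = 0.598), an estimate of 1.12-fold with a 95% interval from 0.966-fold to 1.29-fold. The ratio of group means was 1.12 in libraries 1 to 3 and 1.11 in libraries 4 and 5. In libraries 4 and 5 this ratio rested on palmitoylglycine library 4, at 17.3 CPM. Palmitoylglycine library 5, at 14.0 CPM, lay between DMSO libraries 4 and 5, at 14.6 and 13.5 CPM. The edgeR unadjusted p was 0.188 in libraries 1 to 3 alone and 0.334 in libraries 4 and 5 alone.

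Egr1, whose promoter with 2 CArG boxes is shown above, encodes a factor that links growth and stretch signals to later gene programmes. With DMSO it was at 206.4, 207.5, 231.2, 119.7 and 116.9 CPM in libraries 1 to 5. With palmitoylglycine it was at 243.2, 247.2, 261.0, 116.0 and 118.3 CPM. The 4 libraries numbered 4 and 5 formed a tight group whatever the treatment, while among libraries 1 to 3 every palmitoylglycine value lay above every DMSO value. Over all libraries the means were 176.3 ± 53.9 CPM (SD, n = 5) with DMSO and 197.2 ± 73.3 CPM (SD, n = 5) with palmitoylglycine. The log2 fold change was 0.16 ± 0.29 (SE, edgeR adjusted p = 0.898), and the 95% interval was wide, from 0.717-fold to 1.74-fold. With the library set term the log2 fold change was 0.13 ± 0.06 (SE, edgeR unadjusted p = 0.0519, adjusted p = 0.266), with an interval from 0.999-fold to 1.19-fold. With the replicate block the interval was 0.989-fold to 1.21-fold.

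Within libraries 1 to 3, the mean of Egr1 was 215.0 ± 14.0 CPM (SD, n = 3) in the DMSO group. With palmitoylglycine it was 250.5 ± 9.35 CPM (SD, n = 3). That is a log2 fold change of 0.22 ± 0.06 (SE, edgeR unadjusted p = 0.0086, adjusted p = 0.0864), which missed the adjusted threshold. Egr1 was the only one of the 5 genes under an unadjusted p of 0.05 in this set, where 24.9% of all genes were under it and 4.55% passed the adjusted threshold. Within libraries 4 and 5 the log2 fold change was −0.015 ± 0.08 (SE, edgeR adjusted p = 1.00). In libraries 4 and 5 none of the 5 genes was under an unadjusted p of 0.05, beside 3.11% of all genes, and 0.0325% of all genes passed after adjustment. The difference between these effects, tested as an interaction, was −0.23 ± 0.09 (SE, edgeR unadjusted p = 0.0324, adjusted p = 0.431). An unadjusted interaction p under 0.05 was found for 10.7% of all genes, so the Egr1 effect was not shown to differ between the sets.

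Myc, the growth-promoting member, was at 34.1, 34.6, 34.05, 29.6 and 28.0 CPM in DMSO libraries 1 to 5. With palmitoylglycine it was at 32.0, 33.2, 32.1, 27.2 and 29.9 CPM. The groups overlapped, and libraries 4 and 5 of both lay below all of libraries 1 to 3. The means were 32.1 ± 3.05 CPM (SD, n = 5) with DMSO and 30.9 ± 2.37 CPM (SD, n = 5) with palmitoylglycine. The log2 fold change was −0.055 ± 0.08 (SE, edgeR adjusted p = 0.875). Its 95% interval, from 0.848-fold to 1.09-fold, was the narrowest of the 5 genes.

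**Figure D2:**
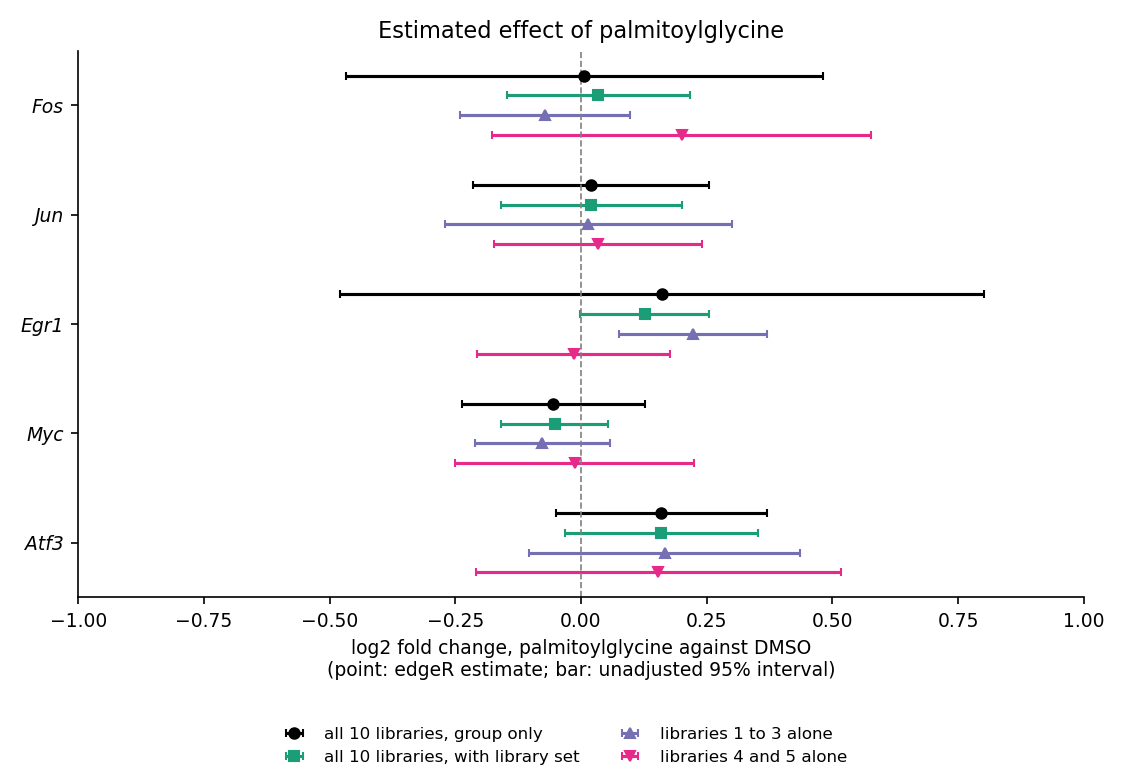
The horizontal axis gives the log2 fold change of palmitoylglycine against DMSO for each gene, as a point with its unadjusted 95% interval, under 4 fits of edgeR. The intervals of Fos and Egr1 shorten when library set is a term, and the Egr1 interval in libraries 1 to 3 alone lies between 1.05-fold and 1.29-fold.

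In libraries 1 to 3 taken alone, palmitoylglycine and DMSO values did not overlap for 3 of the 5 genes: Egr1 was higher with palmitoylglycine, Fos and Myc were lower. The same held for 31.6% of all genes tested. Fos ranged from 21.7 to 22.6 CPM with palmitoylglycine and from 22.7 to 24.4 CPM with DMSO in these libraries, a ratio of means of 0.950. Myc ranged from 32.0 to 33.2 CPM against 34.05 to 34.6 CPM, a ratio of 0.947. These 2 small differences did not pass the test, with edgeR adjusted p-values of 0.581 for Fos and 0.449 for Myc. In libraries 4 and 5, Jun alone of the 5 did not overlap between treatments, where 32.3% of all genes did not, and its ratio of means was 1.02. The interaction of treatment and library set passed an adjusted p of 0.05 for 0 of the 5 genes in edgeR, beside 0.0587% of all genes. At an unadjusted p under 0.05 the interaction was found for 1 of the 5, Egr1, in edgeR and in DESeq2. The same held for 10.7% of all genes in edgeR and for 1735 of 15528 genes in DESeq2. After adjustment, the DESeq2 interaction passed for 0 of the 5 genes and for 204 of all genes. When single libraries were left out, the unadjusted edgeR p of Egr1 was no longer under 0.05 in 6 of 10 fits (without DMSO library 1, 2, 4 or 5 or palmitoylglycine library 3 or 4), ranging from 0.0067 to 0.0918. Without palmitoylglycine library 4, Fos was under it in place of Egr1 (edgeR unadjusted p = 0.0089, adjusted p = 0.216).

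Egr1 and Fos differed most between the library sets. The ratio of mean CPM in libraries 4 and 5 to that in libraries 1 to 3 was 0.550 for Egr1 with DMSO and 0.468 with palmitoylglycine, so that libraries 1 to 3 held 1.82 and 2.14 times as much. For Fos the ratio was 0.568 with DMSO and 0.687 with palmitoylglycine. Jun stood at 0.852 and 0.865, and Myc at 0.841 and 0.881. Atf3 went the other way, at 1.09 and 1.08. All 4 of libraries 4 and 5 lay below all 6 of libraries 1 to 3 for Egr1, Fos and Myc, 3 of the 5 genes, and the same was true of 10.3% of all genes tested. The reverse order was seen for 0 of the 5 genes and for 11.0% of all genes. Because the sets were seen in the same data, these counts are a description.

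**Figure D3:**
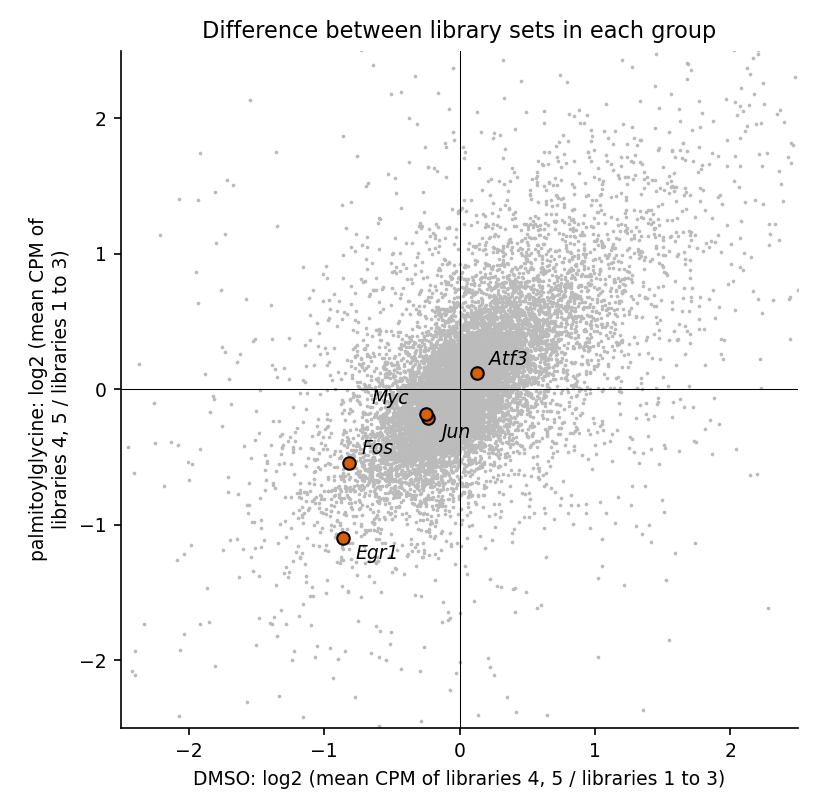
Each grey point is 1 of 15298 genes. The axes give the log2 ratio of mean CPM in libraries 4 and 5 to that in libraries 1 to 3, with DMSO (horizontal) and with palmitoylglycine (vertical). The axes stop at 2.5, which leaves 174 genes out. Egr1 lies at −0.86 and −1.10 and Fos at −0.82 and −0.54, toward the lower left within the cloud, while Jun, Myc and Atf3 lie nearer its middle.

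Placed among all genes, Egr1 was at the low end in both treatments. With DMSO, 2.65% of 15298 genes had a lower ratio between the sets than Egr1, and with palmitoylglycine 1.59%. For Fos these shares were 3.0% and 8.0%. Jun, with 21.6% and 26.0%, and Myc, with 19.8% and 28.6%, were nearer the middle, and Atf3 was above it at 65.8% and 62.1%. Egr1, Fos, Myc and Jun thus lay below the middle of the range in both treatments, and only Atf3 lay above it.

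The spread between libraries of each gene restates the same division and is no separate evidence for it. The sets were defined from these data, and a gene that differs between them must lose spread when set is a term. The biological coefficient of variation (BCV), edgeR's estimate of spread beyond counting error, was 32.6% for Egr1 and 25.0% for Fos with treatment as the only term. The median over all genes tested was 17.2%. With library set as a further term it was 9.24% for Egr1 and 11.5% for Fos, beside a median of 13.2%. The BCV of Egr1 was thus 3.52 times as large without the set term, that of Fos 2.17 times, that of Myc 1.40 times, that of Jun 1.24 times and that of Atf3 1.12 times. The median of this ratio over all genes was 1.17. After the set term, 4.18% of genes had a smaller spread than Myc and 12.8% a smaller spread than Egr1.

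**Figure D4:**
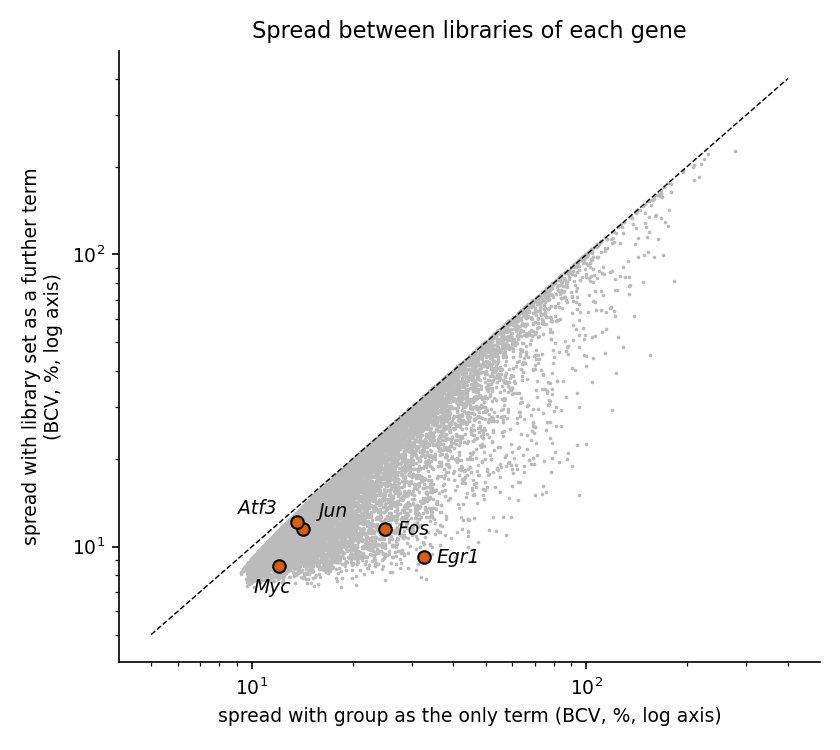
The horizontal axis is the BCV of each gene in percent with treatment as the only term and the vertical axis the BCV with library set as a further term, both on log axes. The dashed line marks equal values. Egr1 and Fos lie far below the line, at 32.6% against 9.24% and 25.0% against 11.5%, and Jun, Myc and Atf3 lie nearer to it.

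Counting error was small beside these spreads. The lowest count of any of the 5 genes was 778 reads, for Atf3 in DMSO library 3, and the highest 18864, for Egr1 in palmitoylglycine library 3. Counting alone would give a coefficient of variation of 3.31% for Atf3 and 0.909% for Egr1 in the DMSO group, where the observed values were 10.1% and 30.6%. Among DMSO libraries 1 to 3 the observed value for Myc was 0.985%, below the 2.04% that counting gives. These reads carry no molecular identifiers, so the figures cover counting error only.

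Likeness of pattern was measured as the root mean square difference of log2 CPM over the 10 libraries, with each gene centred on its own mean, so that 0 means the same relative profile. Among the 10 pairs of the 5 genes, Jun and Myc were closest at 0.124 and Egr1 and Atf3 farthest at 0.56. A gene with the same level in every library would lie 0.117 from Myc and 0.156 from Jun. Jun was thus no closer to Myc than a flat profile, and it ranked 1811 in closeness to Myc. Myc was closer to Jun than a flat profile, and it ranked 373 in closeness to Jun. Fos and Egr1, both lower in libraries 4 and 5, were 0.22 apart, while a flat profile lay 0.35 from Fos and 0.49 from Egr1. Fos ranked 147 in closeness to Egr1 among 13809 other genes averaging 1 CPM or more, and Egr1 ranked 598 in closeness to Fos. Many genes were thus nearer to each than they were to each other. The closest genes overall were ENSRNOG00000028103, at 0.025 from Myc, and ENSRNOG00000053047, at 0.040 from Jun. The files pair neither identifier with a symbol. All 10 points share the difference between the library sets, which weighs on every distance.

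Lists of other immediate early genes (among them Fosb, Jund, Egr2, Nr4a1 and Ier2) and of cell type markers had been drawn up by symbol. They were not evaluated here, since the table gives identifiers alone.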

How the data were processed

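Poly(A) RNA was captured on oligo(dT) beads, fragmented and primed with random hexamers, per the labels' protocols, which describe no strand-marking step. Reads of overlapping or antisense genes may therefore be mixed. Per the file headers, the deposited values are reads per gene, and they are whole-number counts with a different total in each library. The submitters' processing notes name Trimmomatic for trimming and mRatBN7.2 as the build. For the aligner, counting program and annotation release, the sources used here give no name. Columns were matched to samples by the short names in the labels.

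Counts were tested with edgeR 4.0.16 (quasi-likelihood, TMM factors, filterByExpr) in R 4.3.3. The filter kept 15321 genes and removed 263. Treatment was the only term, all 10 libraries entered, and two-sided p-values were adjusted by Benjamini-Hochberg over all genes tested. Standard errors came from the F statistic. The interaction fit added library set and its product with treatment. The script was tested on simulated data. Alternatives were DESeq2 1.42.0, limma-voom (limma 3.58.1) with quality weights, scaling by median-of-ratios factors or by totals, no filter, a replicate block, a library set term, each set alone, and leaving out each library. All 5 genes found are named. The genes, lists and library sets were chosen with earlier results of these data known.

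Replicate numbers 1 to 5 occur in both groups. Over genes of at least 1 CPM, libraries of the same number deviated from their group means with correlations of 0.14, 0.11, 0.22, 0.42 and 0.37, all above 0.1, so numbers were treated as a possible pairing. The pairing comes from the data only. With deviations taken within each library set the correlations were −0.11, −0.065, −0.11, −0.031 and −0.031. No library repeated another of its own group: the mean chi-square per gene over 20 pairs within groups was at least 31.1. Pairs of a DMSO and a palmitoylglycine library were not compared in this way.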

Additional observations from a re-analysis of the deposited data

How the results depend on the processing

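Across 95 alternative values for treatment and 65 for the interaction, 0 of the 5 genes passed an adjusted p of 0.05. The adjusted p ranged from 0.0864 (Egr1, libraries 1 to 3 alone) to 1.00 for treatment and from 0.216 to 0.999 for the interaction. With the replicate block, the log2 fold changes were 0.032 for Fos, 0.027 for Jun, 0.13 for Egr1, −0.053 for Myc and 0.16 for Atf3, and the block changed no call. Myc stayed below 0 and Atf3 above 0 in all 19 alternatives each. Fos turned to −0.0025 with total counts alone and to −0.071 in libraries 1 to 3 alone, and Egr1 to −0.015 in libraries 4 and 5 alone. Leaving out each library gave −0.11 to 0.11 for Fos and −0.032 to 0.11 for Jun, both through 0, and 0.039 to 0.30 for Egr1. The interaction ranged from −0.11 to 0.13 for Jun, −0.0040 to 0.14 for Myc and −0.17 to 0.13 for Atf3 when each library was left out. It was −0.29 to −0.20 for Egr1 and 0.096 to 0.43 for Fos, lowest without palmitoylglycine library 5 and highest without palmitoylglycine library 4. Over all genes, the 0 calls became 134 in DESeq2, 697 with libraries 1 to 3 only and 5 with libraries 4 and 5 only. Single left-out libraries gave 0 to 1 calls, and the 1 came without DMSO library 2 or palmitoylglycine library 1. The cause was not tested. Counting error was below the observed spread of each treatment group for all 5 genes.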

Other observations

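The number of Egr1 reads per Fos read within a library does not depend on how libraries are scaled. This ratio was chosen after the values had been seen and has no test. Since the transcripts differ in length, only its change between libraries can be read. With DMSO it was 9.10, 8.49, 10.1, 9.36 and 8.51 in libraries 1 to 5. With palmitoylglycine it was 11.2, 11.1, 11.6, 8.61 and 6.95. Palmitoylglycine libraries 1 to 3 lay above all 5 DMSO libraries, and palmitoylglycine library 5 lay below all of them. This restates the order of Egr1 and Fos in libraries 1 to 3 given above, where 31.6% of all genes did not overlap between treatments. The share of other gene pairs with such an order was not computed. The ratio of Jun to Fos reads was 3.24 to 4.24 in DMSO libraries 1 to 3 and 5.47 and 5.85 in DMSO libraries 5 and 4. With palmitoylglycine it was 3.86 to 4.25 in libraries 1 to 3 and 5.63 and 4.57 in libraries 4 and 5, a smaller gap. The ratio of Atf3 to Fos reads was 0.521 to 0.602 in DMSO libraries 1 to 3 and 1.14 and 0.985 in DMSO libraries 4 and 5. With palmitoylglycine it was 0.619 to 0.673 in libraries 1 to 3 and 1.29 and 0.823 in libraries 4 and 5.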
